A study of Mus musculus with 38 samples.

Results

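Gene expression in Neuro2A cells after 24 h of retinoic acid was compared with expression at 0 h. Neuro2A is a mouse neuroblastoma line, a tumour line of neural crest origin that grows neurites on treatment with differentiating agents. Per the labels, 7 arrays titled RA24h held RNA of cells kept for 24 h in 20 uM all-trans retinoic acid and 2% serum, and 7 arrays titled 0h Control held RNA of cells harvested before that change, in 10% serum and without retinoic acid. Both groups had been plated for 48 h beforehand, and each array pooled 4 to 6 plates. They are 14 of 38 single-colour arrays in the series, whose other treated arrays were taken at 1, 3, 6 and 12 h. Neither a vehicle control nor a mock change of medium is labelled, so retinoic acid, the lower serum and the added day in culture cannot be told apart. Whether the replicates came from separate cultures is not stated, so the p-values measure the spread between these arrays.

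Retinoic acid acts through nuclear receptors (RAR, paired with RXR) that sit on paired half-sites in DNA and exchange corepressors for coactivators when the ligand binds. In neuroblastoma cells it is known to slow division and to bring out neurites, a change of shape that needs rearranged actin and microtubules, new membrane and new adhesion. The array carried probes mostly for KIAA genes, a collection of genes for large proteins, many cloned from brain. A gene was named for 473 probes, and 103 were unnamed. A value below is either a deposited intensity, which has no absolute unit, or its log2 after quantile normalization over all 38 arrays, called the normalised log2 level. A change is the difference of normalised log2 levels, 24 h minus 0 h, unless the values as deposited are named.

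Of the markers chosen for the neuronal line, 3 had a probe, all factors of the Myt1 family. Myt1, a zinc-finger factor of neuronal progenitors, had levels from 0.21 to 1.17 at 24 h (median 0.78) and from 0.09 to 0.94 at 0 h (median 0.19), and its change of 0.36 ± 0.19 (SE) did not pass (limma adjusted p = 0.565). The other members ran the other way, with a change of -0.14 ± 0.19 for Myt1l (limma adjusted p = 0.767) and of -0.31 for St18, and neither passed. As deposited the changes were 0.07 for Myt1, -0.13 for Myt1l and -0.05 for St18. The chosen neurofilament, tubulin and catecholamine markers (among them Nefl, Nefm, Tubb3, Th and Dbh) were not measured here, so the label of the cells could be checked from few genes. Nefh, the heavy neurofilament, was not among the chosen markers but had a probe, with a change of -0.31 ± 0.16 (SE, limma adjusted p = 0.565), or -0.81 as deposited (limma adjusted p = 0.0631). Of the markers chosen for stroma, glia, blood and vessels, 2 had a probe, Pxdn and Phldb1. Neither passed, with changes of -0.27 and -0.20, and both are also made by other cell types.

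After 24 h, 6 probes passed the threshold (limma, Benjamini-Hochberg adjusted p under 0.05 over all probes), which is 1.04% of those tested. The 3 named genes that rose were Plekhg1, a protein with a pleckstrin homology domain, Cyfip2, part of the WAVE complex, which drives branching of actin filaments, and Atmin, a zinc-finger cofactor of the ATM kinase. The 2 that fell were Ablim1, a LIM protein that binds actin filaments, and Mark3, a kinase that loosens microtubule-associated proteins from microtubules. Unnamed probe 439 rose as well. So 2 of the 5 named genes act on actin and 1 on microtubules. At an unadjusted p under 0.05 there were 39 probes, 17 higher and 22 lower, where 28.8 would lie under that limit if no probe had changed.

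The RefSeq promoters of these 5 genes are printed because retinoic acid receptors act through short DNA half-sites. Each line holds the 250 bases before the first listed transcription start, read 5′ to 3′ on the strand of the gene (build GRCm38.p6). Capitals mark matches to the half-site AGGTCA, the variant AGTTCA, the variant GGGTCA or the variant GGTTCA on either strand.
Plekhg1, chr10:3872417-3872666, plus strand: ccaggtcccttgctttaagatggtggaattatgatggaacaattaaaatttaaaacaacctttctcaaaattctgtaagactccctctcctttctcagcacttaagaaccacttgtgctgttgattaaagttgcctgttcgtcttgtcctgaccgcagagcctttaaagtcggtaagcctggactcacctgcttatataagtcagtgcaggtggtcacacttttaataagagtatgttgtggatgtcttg
Cyfip2, chr11:46312359-46312608, minus strand: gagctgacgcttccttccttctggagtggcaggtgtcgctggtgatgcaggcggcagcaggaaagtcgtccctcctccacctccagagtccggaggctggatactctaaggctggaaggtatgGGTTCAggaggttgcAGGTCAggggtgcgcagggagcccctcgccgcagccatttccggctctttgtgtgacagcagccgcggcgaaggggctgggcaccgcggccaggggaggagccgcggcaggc
Atmin, chr8:116943143-116943392, plus strand: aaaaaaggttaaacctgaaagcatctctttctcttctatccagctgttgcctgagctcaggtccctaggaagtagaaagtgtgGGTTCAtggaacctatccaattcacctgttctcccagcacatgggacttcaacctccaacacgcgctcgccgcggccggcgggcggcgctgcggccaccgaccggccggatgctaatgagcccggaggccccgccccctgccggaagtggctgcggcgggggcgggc
Ablim1, chr19:57314920-57315169, minus strand: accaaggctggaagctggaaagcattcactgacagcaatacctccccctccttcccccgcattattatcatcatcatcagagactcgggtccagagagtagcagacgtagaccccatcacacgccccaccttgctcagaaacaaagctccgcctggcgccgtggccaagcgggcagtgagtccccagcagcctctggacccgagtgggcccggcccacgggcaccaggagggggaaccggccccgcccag
Mark3, chr12:111574260-111574509, plus strand: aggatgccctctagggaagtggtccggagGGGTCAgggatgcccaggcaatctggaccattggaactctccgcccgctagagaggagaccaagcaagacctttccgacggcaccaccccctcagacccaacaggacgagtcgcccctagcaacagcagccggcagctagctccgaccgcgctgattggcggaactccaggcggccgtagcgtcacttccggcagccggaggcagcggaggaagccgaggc
In windows of 300 bases, 250 before and 50 after the start, the Cyfip2 promoter held 2 half-sites, on the gene's strand at positions -127 and -112. Atmin held 1 and Mark3 held 1, while the first promoters of Plekhg1 and Ablim1 held none. Of the 5 promoters listed for Ablim1, 2 held a half-site. None of the 10 promoters of the 5 genes held a pair of half-sites in direct repeat with 1, 2 or 5 bases between them. A single half-site is common: it was present in 43.7% of all 32851 promoters in the table and in 34.3% of the 591 promoters of genes on the array. Direct repeats were rare, at 0.222% of all promoters for a spacer of 1 base, 0.268% for 2 and 0.0974% for 5. These matches describe letters in short windows and say nothing of binding.

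Plekhg1 had a normalised log2 level from 0.15 to 0.81 on the 24 h arrays (median 0.50) and from -0.79 to -0.12 on the 0 h arrays (median -0.39). The lowest array at 24 h lay above the highest at 0 h. The change was 0.90 ± 0.15 (SE), or 1.86-fold (limma adjusted p = 0.000801), and it was the first of the 473 named genes by moderated t on both scales. As deposited, its intensity ran from 1.08 to 1.51 at 24 h and from 0.540 to 0.919 at 0 h. The value 0.540 is a shared lowest value of most arrays, called the floor here. It was reached on 1 control array, which bounds the level there from above.

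Cyfip2 had levels from 0.28 to 2.00 at 24 h (median 0.84) and from -0.57 to 0.36 at 0 h (median -0.08). The groups overlapped by a single treated array: 6 of 7 arrays at 24 h lay above every control. Its change was 1.00 ± 0.20 (SE), 2.00-fold (limma adjusted p = 0.00485). The highest array, replicate 1 at 2.00, stood well above the next at 1.04. Atmin had levels from 1.39 to 1.97 at 24 h (median 1.51) and from 0.52 to 1.15 at 0 h (median 0.78), without overlap. Its change was 0.82 ± 0.20 (SE, limma adjusted p = 0.0296). As deposited the groups of Atmin did overlap, with intensities from 1.85 to 3.47 at 24 h and from 1.69 to 2.28 at 0 h, and the change of 0.35 did not pass (limma adjusted p = 0.243).

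Ablim1 had levels from -0.81 to 0.33 at 24 h (median 0.03) and from 0.45 to 1.10 at 0 h (median 0.73). Every 24 h array lay below every control. The change was -0.89 ± 0.20 (SE, limma adjusted p = 0.00968), the last named gene in the ranking on both scales. At 24 h 1 array was at the floor. Mark3 had levels from -0.12 to 0.93 at 24 h (median 0.35) and from 0.60 to 1.43 at 0 h (median 1.10). The groups overlapped, with 5 of 7 arrays at 24 h below every control. Its change was -0.67 ± 0.16 (SE, limma adjusted p = 0.0241), the next to last in the ranking on both scales. Probe 439, among the brightest spots, ran from 3.63 to 5.43 at 24 h and from 2.18 to 3.63 at 0 h, so the groups touched at 3.63. It changed by 1.59 ± 0.31 (SE, limma adjusted p = 0.00392), and as deposited by 1.03, which did not pass (limma adjusted p = 0.0946).

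**Figure D1:**
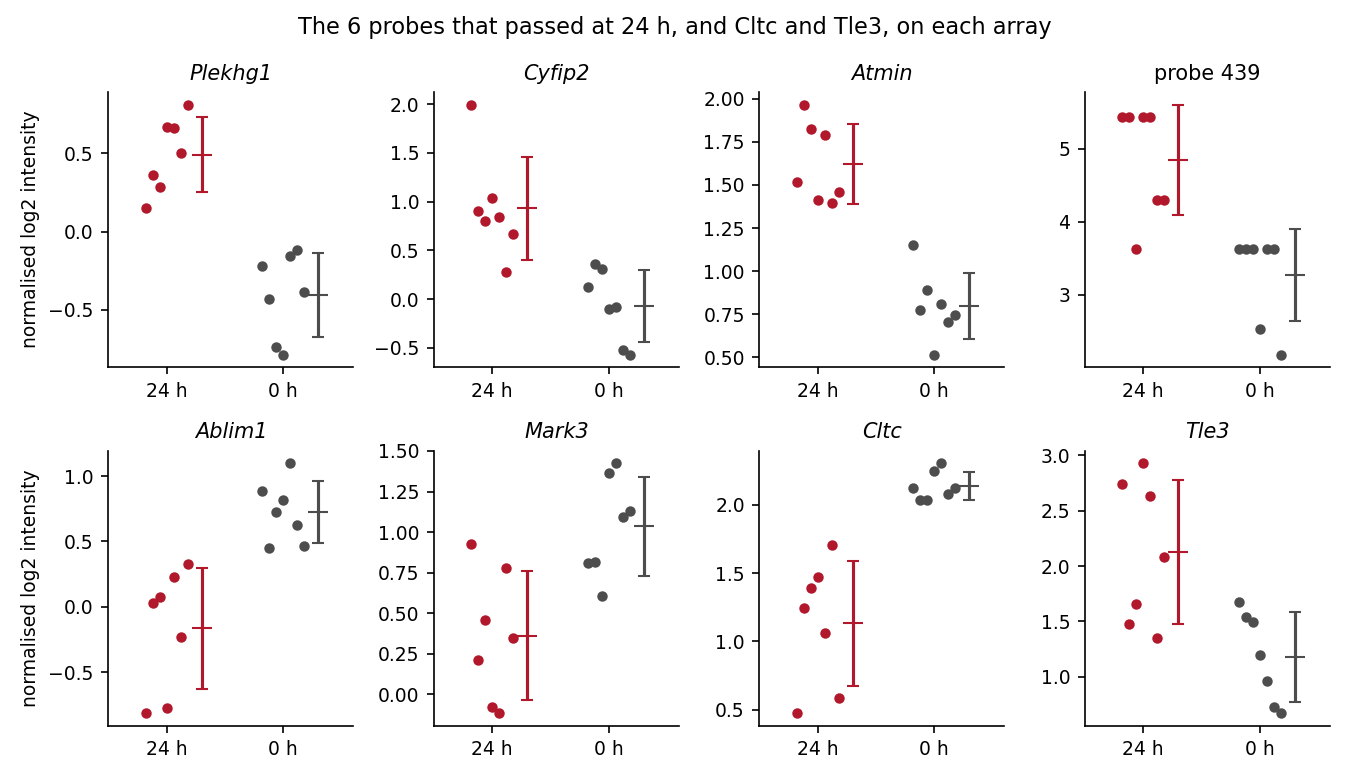
Normalised log2 level of the 6 probes that passed and of Cltc and Tle3, on each of the 7 arrays at 24 h (left, red) and at 0 h (right, grey), with the mean and SD beside the points. Plekhg1, Atmin, Ablim1 and Cltc have groups that do not overlap; the 24 h points of Ablim1, Mark3 and Cltc lie low and those of the other probes high.

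Groups that did not overlap were few among named genes: 4 of 473 (0.846%), Plekhg1 and Atmin higher and Ablim1 and Cltc lower. Cltc, the clathrin heavy chain that forms the coat of endocytic vesicles, had levels from 0.47 to 1.71 at 24 h (median 1.24) and from 2.04 to 2.31 at 0 h (median 2.12). The controls were tight (SD 0.10) and the 24 h arrays spread (SD 0.46). Its change of -1.003 ± 0.35 (SE) was the lowest of any named gene, yet it did not pass (limma adjusted p = 0.318) in a fit that shares 1 spread over all 6 time groups. With the 14 arrays alone it passed (limma adjusted p = 0.0117), while Cyfip2, Mark3 and probe 439 did not pass in that fit. The SD of Cltc was 0.93 at 1 h and 1.19 at 3 h, groups that enter the shared spread. The Cltc partner Clint1, an adaptor of clathrin coats on the way from the Golgi to endosomes, had a change of -0.60 ± 0.26 (SE, limma adjusted p = 0.565).

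Next in the ranking after the called genes came Tle3, a Groucho-type corepressor. It had levels from 1.35 to 2.93 at 24 h (median 2.08) and from 0.67 to 1.67 at 0 h (median 1.20), with all 7 treated arrays above the control mean. Its change of 0.94 ± 0.27 (SE) did not pass (limma adjusted p = 0.0988). Dop1b, a Dopey-family protein of endosome and Golgi traffic, followed with 0.78 ± 0.23 (limma adjusted p = 0.127). Then came the RING-finger ubiquitin ligase Rnf157 (0.31), the filament-forming GTPase Septin8 (0.35), Sel1l3 (0.46), a relative of an adaptor in protein degradation at the endoplasmic reticulum, and Arhgef2 (0.77), a microtubule-bound exchange factor. The rest of the first 15 were the Rab regulator Sgsm2 (0.31), the teneurin Tenm4 (0.39), the ubiquitin ligase receptor Dcaf5 (0.39), the centrosomal relative Cep170b (0.59), the semaphorin receptor subunit Plxna2 (0.63) and D130043K22Rik (0.52). None of these 12 genes passed on this scale. Some of these changes were much smaller as deposited: Septin8 had 0.06, Arhgef2 0.07, Dcaf5 0.06, Sel1l3 -0.02 and Tle3 0.38. Dop1b had 0.76 on that scale, and Rnf157, Sgsm2, Tenm4, Cep170b and Plxna2 had no smaller a change there. For Rnf157, Tenm4, Cep170b and Plxna2 the median control lay at the floor. Their control level is bounded only from above there, so the sizes of these changes depend on the floor.

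At the bottom of the ranking, above Ablim1 and Mark3, came St18, a Myt1-family factor (-0.31 ± 0.09, limma adjusted p = 0.127), and Pds5b, a cohesin regulator that holds sister chromatids together (-0.47 ± 0.15, limma adjusted p = 0.161). St18 levels were -0.76 to -0.48 at 24 h (median -0.63) and -0.71 to 0.03 at 0 h (median -0.32), so the groups overlapped. As deposited the change of St18 was only -0.05 (limma adjusted p = 0.791), while that of Pds5b was -0.88. Next were Btbd7 (-0.44), Cltc, the nuclear speckle protein Son (-0.72), the deubiquitinase Usp31 (-0.43), gamma actin Actg1 (-0.80), the integrin-actin linker Tln2 (-0.45), the histone methyltransferase Kmt2b (-0.43), Gpcpd1 (-0.38), a phosphodiesterase of choline lipids, the phosphatase subunit Ppp1cc (-0.74), the centrosome protein Cep192 (-0.39) and Clint1. The median 0 h level of the 50 named genes at the bottom was 0.76, that of the 50 at the top -0.16, and that of all named genes 0.06; these are brightnesses of different probes and do not measure how abundant the transcripts were. Of the 50 at the top, 23 were also among the top 50 as deposited, and 29 of the 50 at the bottom were also among the bottom 50.

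Most genes that handle RNA were lower, without a call. The list of RNA processing, export and ribosome genes had 25 measured members, 4 higher and 21 lower, with a median change of -0.27. Over the 473 named genes 253 were higher and 220 lower, with a median of 0.02. No member passed on the normalised scale. The median member, taken relative to its own mean over the 14 arrays, was from -0.29 to -0.05 on the 24 h arrays and from -0.04 to 0.26 on the 0 h arrays. All 7 treated arrays lay below the lowest control, by a small margin at the closest pair. As deposited 6 of 7 did and the groups overlapped, with the highest treated array at -0.10 and the lowest control at -0.15. Son, which keeps splicing factors in nuclear speckles, had levels from -0.78 to 1.00 at 24 h (median 0.33) and from 0.57 to 1.44 at 0 h (median 0.94), and it stood lowest of the list. Virma, a subunit of the complex that writes N6-methyladenosine on RNA, had a change of -0.40 and Rrp12, a factor of ribosome assembly and export, one of -0.32. Neither passed (limma adjusted p = 0.565 for both). The member with the highest change was Helz, a helicase, at 0.55, which is named here after its value was seen.

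The RNA list was also brighter than most, with a median 0 h level of 0.51 and 11 of its 25 members in the brightest quintile of named genes. Bright genes as a class ran low: the median change was -0.14 in the brightest quintile and 0.07 in the dimmest. The quintiles were formed from the control arrays that the change also subtracts, so part of this is built in. Set against the median of their own quintile of level, 20 of 25 RNA genes lay below it, and the list's median was -0.21 relative to it. As deposited the count was 20 of 25 as well, with a median of -0.20 relative to the same quintile. The list was chosen with results of these arrays known, so the direction is a description.

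All 7 metabolic and mitochondrial genes were lower on the normalised scale, and 6 of the 7 as deposited, where Entpd4 was higher (0.19). The members were the import receptor Tomm70a (-0.65), glycolytic Gapdh (-0.52), the mitochondrial mRNA-binding protein Cluh (-0.50), the inner-membrane fusion GTPase Opa1 (-0.48), the outer-membrane fusion GTPase Mfn2 (-0.47), Ahcyl2 (-0.18) and the nucleotidase Entpd4 (-0.15). None passed on the normalised scale. The list's median change was -0.48, and the arrays were uneven: the median member ranged from -0.91 to 0.23 relative to its own mean at 24 h and from -0.16 to 0.32 at 0 h. The groups overlapped, with 4 of 7 treated arrays below the lowest control. Each of the 7 lay below the median of its own quintile of level on both scales. Tomm70a had intensities as deposited from 1.23 to 3.56 at 24 h (median 2.89) and from 4.99 to 9.50 at 0 h (median 5.74), without overlap, and it fell by 1.34 on that scale (limma adjusted p = 0.0254).

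More synaptic and signalling genes were higher than lower. Over all 473 named genes 253 were higher and 220 lower, and in the dimmest quintile 69 of 95 were higher. Of 18 measured genes of synapses and vesicles 15 were higher and 3 lower, with a median change of 0.12 and no call. Among them were Stxbp5, a brake on vesicle fusion (0.27), and Syt11, a synaptotagmin (0.28, but -0.14 as deposited). Tspoap1, a binding protein of the active zone, lay at the floor on all 7 controls, so no size is given for it. The median member was from -0.04 to 0.21 on the 24 h arrays and from -0.18 to 0.00 on the 0 h arrays, and the groups overlapped, with 3 of 7 treated arrays above the highest control. As deposited all 7 were above it, but the list is dim, with a median 0 h level of -0.40, and nearly all dim genes were higher on that scale. Relative to the median of each gene's own quintile of level, the list's median was 0.08, with 14 of 18 above it, and as deposited 0.06, with 13 of 18 above it, against a median change of 0.28 as deposited. Of 19 kinases, phosphatases and related signalling genes 15 were higher and 4 lower, with a median change of 0.12, and 6 of the 19 were among the top 50 of the ranking and 0 among the bottom 50, against 3 and 1 as deposited. By size 50 of 473 is 10.6%. The 3 with the largest moderated t were the phosphatase Ppm1e (0.43), the phosphoinositide phosphatase Sacm1l (0.33) and the adenylyl cyclase Adcy3 (higher). None was past the threshold, and Sacm1l was -0.17 as deposited. The median control of Adcy3 lay at the floor, so no size is given for it either. As deposited this list had 10 higher and 9 lower, and with median centring its median was -0.04.

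The cytoskeletal, GTPase and adhesion lists had members on both sides. Of 19 actin genes 11 were higher and 8 lower (median 0.08, -0.03 as deposited), and they held both Cyfip2, the highest of all named genes, and Ablim1, the last in the ranking: 2 of 19 were called, against 1.04% of all probes. Their spread is wide, with 5 of 19 in the top 50 and 4 in the bottom 50. The actin list too was chosen with results of these arrays known, so these shares are a description. Of 30 microtubule and centrosome genes 16 were higher and 14 lower (median 0.02, -0.12 as deposited), with Mark3 the only call. Of 25 regulators of Ras, Rap, Arf and Rab 14 were higher (median 0.13), including the Rab exchange factor Madd (0.42) and Arfgef3 (0.28), with 0 calls. Of 23 adhesion and guidance genes 15 were higher (median 0.05), from Tenm3, a teneurin, at -0.50 to Plxna2 at 0.63 (median control at the floor), with 0 calls. As deposited 19 were higher and 4 lower (median 0.28), and all 7 arrays at 24 h lay above every control. This list is dim as well (median 0 h level -0.52), and as deposited 11 genes lay above and 11 below the median of their own quintile of level.

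In the remaining lists Atmin was the only call on the normalised scale. Of 42 ubiquitin genes 20 were higher and 22 lower (median -0.01), and of 24 chromatin genes 13 and 11 (median 0.01, -0.15 as deposited), the lowest being Suz12, a Polycomb subunit (-0.66). Of 26 zinc-finger and other factors 16 were higher (median 0.02). Of 29 autophagy and endolysosomal genes 17 were higher (median 0.04), with Fnip1, a partner of folliculin, highest at 0.28 and Cltc lowest. Secretory pathway genes were 6 higher of 10 (median 0.06), channels and transporters 5 of 9 (median 0.05) and lipid genes 4 of 5 (median 0.01). Cell cycle and DNA genes were 4 higher of 6, with a median of 0.16 that was 0.004 as deposited, and Mediator and other transcription genes 2 of 6 (median -0.13, -0.10 as deposited). Of 9 genes chosen for a link to retinoic acid, 3 were higher and 6 lower (median -0.16), and none passed. They ran from Tle3 at the top to Zfp423, a zinc-finger factor known in neuroblastoma for its part in the response to retinoic acid, at -0.28 and Sipa1l2 at -0.36.

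**Figure D2:**
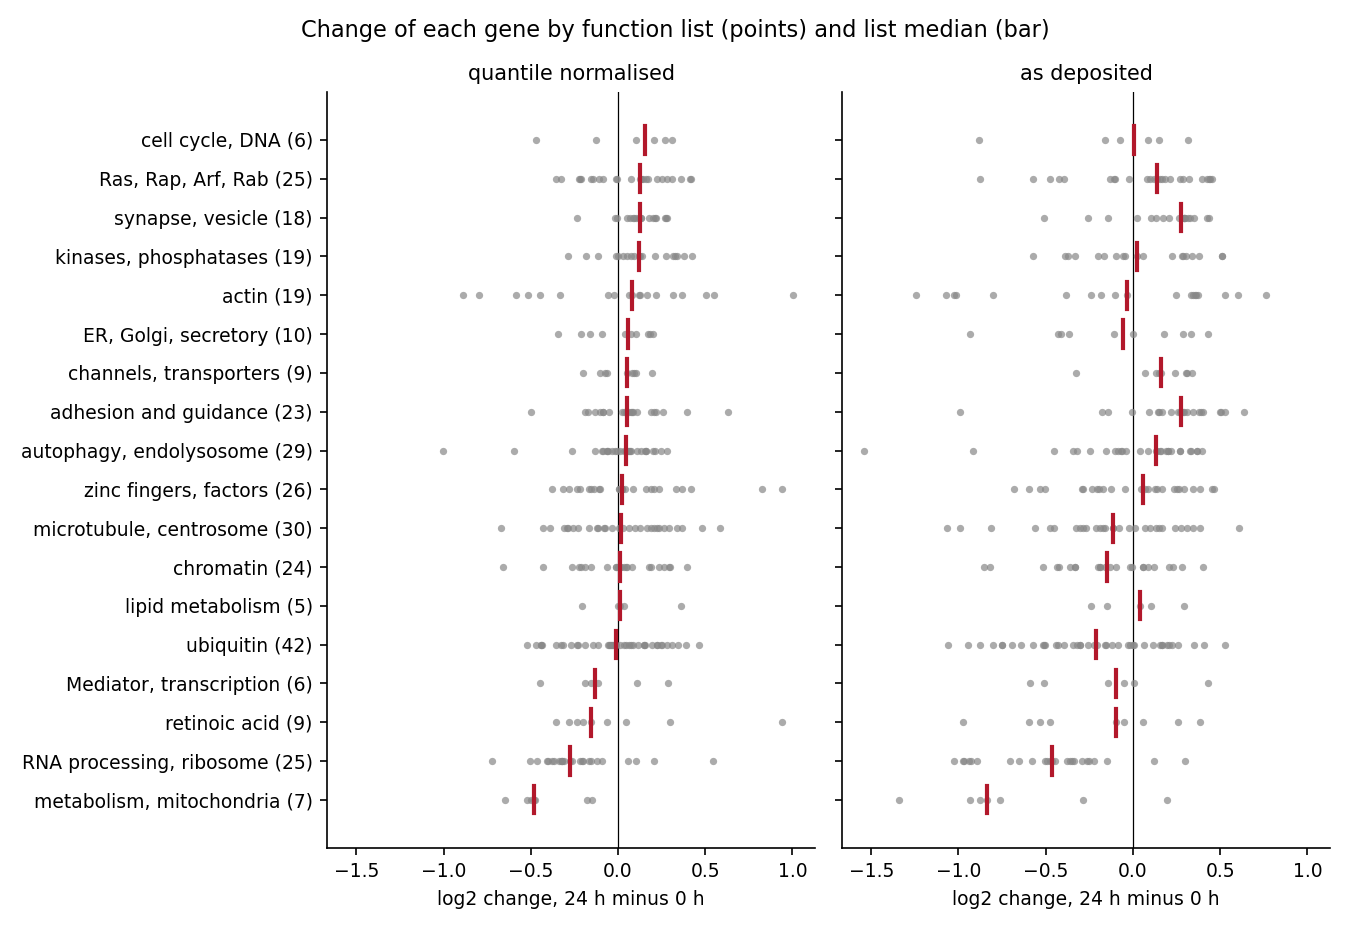
Change at 24 h (log2, 24 h minus 0 h) of each measured gene in 18 function lists, one row a list with its number of genes in brackets, on the normalised scale (left) and as deposited (right); grey points are genes and red bars list medians. The medians of RNA and metabolic genes lie left of 0 on both scales, and that of the synapse list right of 0 on both, while lists such as chromatin and ubiquitin move left as deposited.

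The 24 h arrays covered a narrower range of intensity than the controls, and this bears on every change above. The interquartile range of deposited log2 intensity ran from 0.58 to 1.06 at 24 h (median 0.89) and from 1.23 to 1.83 at 0 h (median 1.53). The groups did not overlap, and the difference of means was -0.63. This comparison was chosen with the narrower range known, so the values are a description. With the range as a covariate in the fit, Plekhg1 passed and the other 5 of the 6 probes did not. Rnf157, whose median control lay at the floor, passed there as well (0.52, limma adjusted p = 0.0204). Because the ranges of the 24 h and 0 h arrays did not overlap, that fit cannot part range and group well, and why calls were lost was not tested. The floor moved with the range: from 0 to 108 probes lay at the floor at 24 h (median 0) and from 120 to 210 at 0 h (median 157). At 24 h 4 of 7 arrays had no probe there, and at 0 h 0 of 7. The order of probes was as alike between the groups as within them, with a median rank correlation of 0.807 between 24 h and 0 h arrays, 0.794 within 24 h and 0.807 within 0 h, over pairs that share arrays.

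**Figure D3:**
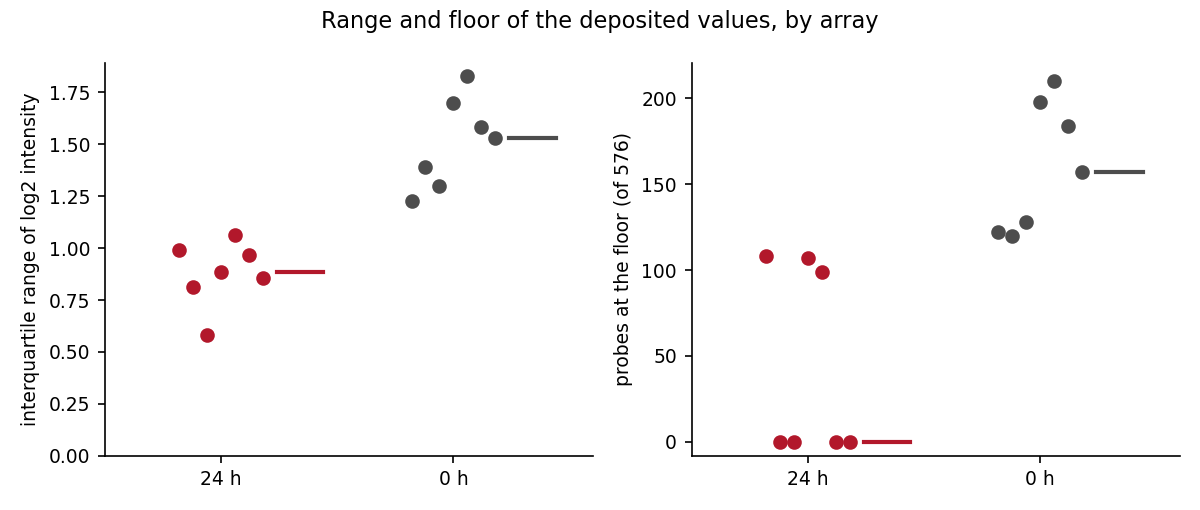
Interquartile range of the deposited log2 intensities (left) and number of probes at the floor (right) for each of the 7 arrays at 24 h (red) and at 0 h (grey), with the group median as a bar. All 24 h arrays have the smaller range, and 4 of them have 0 probes at the floor.

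As deposited, 11 probes passed (1.91% of all probes), 3 higher and 8 lower, and 4 were shared with the normalised scale: Plekhg1, Cyfip2, Ablim1 and Mark3. The added gene that rose was Rnf157, with intensities from 0.540 to 0.934 at 24 h and from 0.540 to 0.636 at 0 h. It changed by 0.53 (limma adjusted p = 0.00378), while control arrays at the floor set only an upper limit there. The 6 lower genes that passed on this scale only were Usp31 (-0.75), Pds5b (-0.88), Gpcpd1 (-0.72), Tomm70a (-1.34), Son (-1.02) and U2surp (-0.71), a protein of the U2 spliceosome particle. All 6 were lower on the normalised scale too, without passing there. At an unadjusted p under 0.05 there were 129 probes, 55 higher and 74 lower.

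The change as deposited followed the level at 0 h. The same control arrays give that level and the value subtracted, so part of this pattern is built in on both scales. A control value at the floor could also not be lower at 24 h as deposited. In the dimmest quintile of named genes at 0 h, 95 of 95 were higher at 24 h as deposited, with a median of 0.29, and in the brightest quintile 3 of 95 were, with a median of -0.58. On the normalised scale the same quintiles had 69 of 95 and 34 of 95 higher, with medians of 0.07 and -0.14. The sign was the same on both scales for 346 of 473 named genes. It was higher normalised and lower as deposited for 69, and the reverse for 58. Acin1, a splicing-associated protein, had a change of -0.20 normalised and -0.97 as deposited, Tubb5, a beta tubulin, -0.29 and -1.07, and the ubiquitin ligase Nedd4 -0.06 and -0.80. Dim genes differed the other way: Nrcam, a neuronal adhesion molecule, had 0.20 normalised and 0.50 as deposited, and the cadherin Pcdh10 had 0.02 and 0.34. None of these 5 passed on either scale. The median control of Nrcam lay at the floor and that of Pcdh10 (0.544) just above it, so the sizes of their changes depend on the floor.

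**Figure D4:**
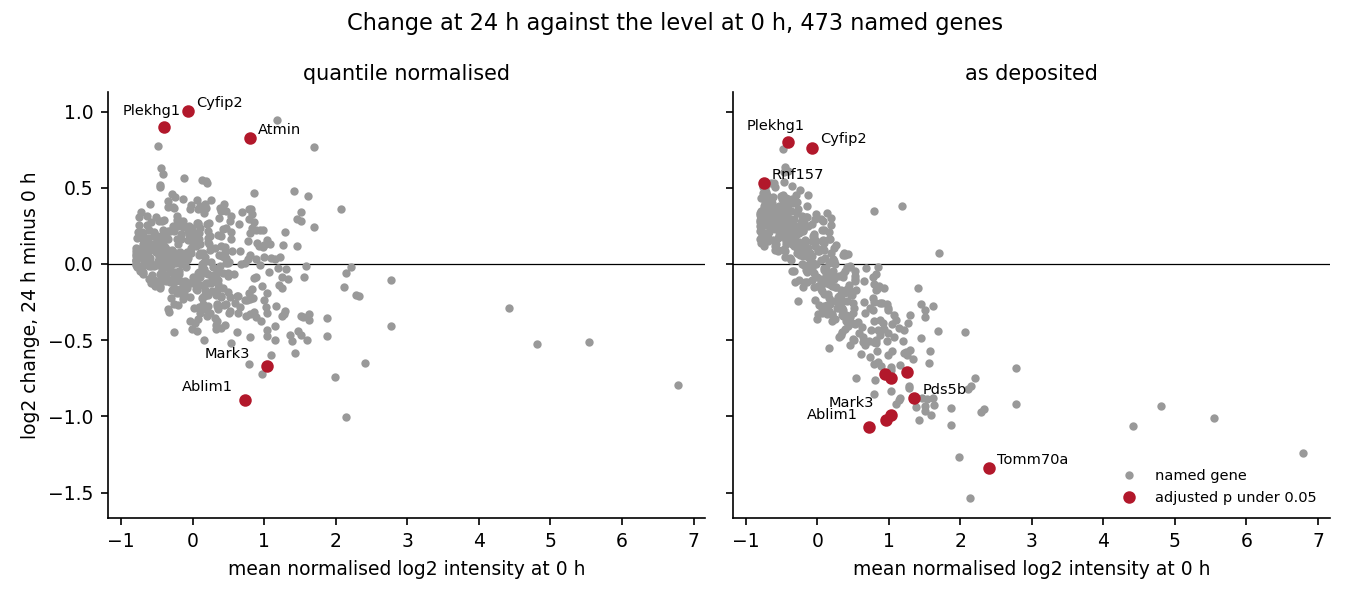
Change at 24 h (log2, 24 h minus 0 h) of the 473 named genes against their mean normalised log2 level at 0 h, on the normalised scale (left) and as deposited (right); red points passed an adjusted p of 0.05. As deposited, dim genes lie above 0 and bright genes below, with 95 of 95 of the dimmest quintile above 0 and 3 of 95 of the brightest. The same control arrays give the level and the value subtracted, so part of this slope is built in.

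As deposited, the groups of 10 named genes did not overlap (2.11% of 473), 6 higher and 4 lower, and 3 of them did not overlap on the normalised scale either (Plekhg1, Ablim1 and Cltc). The others that were higher, Nrcam, Ppip5k1, Zfr2, Tspoap1 and Syne1, were dim, with 2 to 7 of the 7 control arrays at the floor. The others that were lower were Tomm70a and Fbxw11, a substrate receptor of a ubiquitin ligase (-0.50, limma adjusted p = 0.0804). On the normalised scale 42 unnamed probes also had groups that did not overlap, with changes no larger than 0.02. All 42 lay at the floor on all 7 controls and on 3 of the 24 h arrays, where normalization sets tied values.

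The 5 brightest named genes, Actg1, Actb, Gapdh, Tubb5 and Tcf25, were all lower as deposited, with log2 changes from -1.24 to -0.68, and none passed. Actg1 had intensities from 31.0 to 78.1 at 24 h (median 44.1) and from 34.9 to 201.8 at 0 h (median 106). Only control replicate 1 lay within the 24 h range. On control replicates 4 and 5 Actg1 stood at a highest scanner value shared with arrays of other times, which may be an upper limit of the scanner and then bounds its level there only from below. Its normalised change of -0.80 ± 0.32 (SE) did not pass (limma adjusted p = 0.490), and without control replicate 1 it was -1.14 (limma adjusted p = 0.0118). The 6 controls left in that fit all had the top normalised value, 7.13, though their deposited intensities ran from 96.5 to 201.8. That p-value therefore leaves out the spread between these controls. Actb changed by -0.51 and Gapdh by -0.52 on the normalised scale (limma adjusted p = 0.603 and 0.565). Actg1 was the brightest probe on 6 of 7 controls and on 0 of 7 arrays at 24 h, where unnamed probe 168 was brightest on 7 of 7.

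Against the other treated times, which share the medium change and the retinoic acid, 2 probes passed (0.347% of all probes): Plekhg1 and Cyfip2. Plekhg1 was 0.67 ± 0.12 (SE) above the mean of 1, 3, 6 and 12 h and Cyfip2 0.92 ± 0.16 (limma adjusted p = 0.00154 for both). The mean Plekhg1 level was -0.40 ± 0.27 (SD) in the 7 controls, then -0.37 ± 0.38 after 1 h and -0.03 ± 0.11 after 3 h (5 arrays each), and -0.28 ± 0.37 after 6 h, -0.01 ± 0.27 after 12 h and 0.49 ± 0.24 after 24 h (7 arrays each). The 24 h mean was the highest, and the difference from 12 h alone, 0.50, did not pass (limma adjusted p = 0.435). Cyfip2 was -0.07 ± 0.37 in the controls, then 0.003 ± 0.25 after 1 h, 0.06 ± 0.41 after 3 h, -0.20 ± 0.37 after 6 h, 0.20 ± 0.31 after 12 h and 0.93 ± 0.53 after 24 h. Its means up to 12 h lay within their SDs, and 24 h minus 12 h alone was 0.74 (limma adjusted p = 0.296).

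Atmin, Ablim1 and Mark3 did not pass against the other treated times, with differences of 0.55, -0.36 and -0.41 (limma adjusted p = 0.180, 0.531 and 0.228). Atmin was at 1.14 ± 0.51 at 6 h and 1.47 ± 0.54 at 12 h, against 1.62 ± 0.23 at 24 h. Ablim1 was at -0.16 ± 0.31 at 6 h, 0.05 ± 0.38 at 12 h and -0.17 ± 0.46 at 24 h, means that do not differ beyond their spread. Mark3 was at 0.50 ± 0.32 at 6 h, 0.66 ± 0.17 at 12 h and 0.36 ± 0.40 at 24 h. Between 24 h and 12 h alone 0 probes (0%) passed with limma, and 22 had an unadjusted p under 0.05, fewer than the 28.8 under that limit if nothing had changed.

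**Figure D5:**
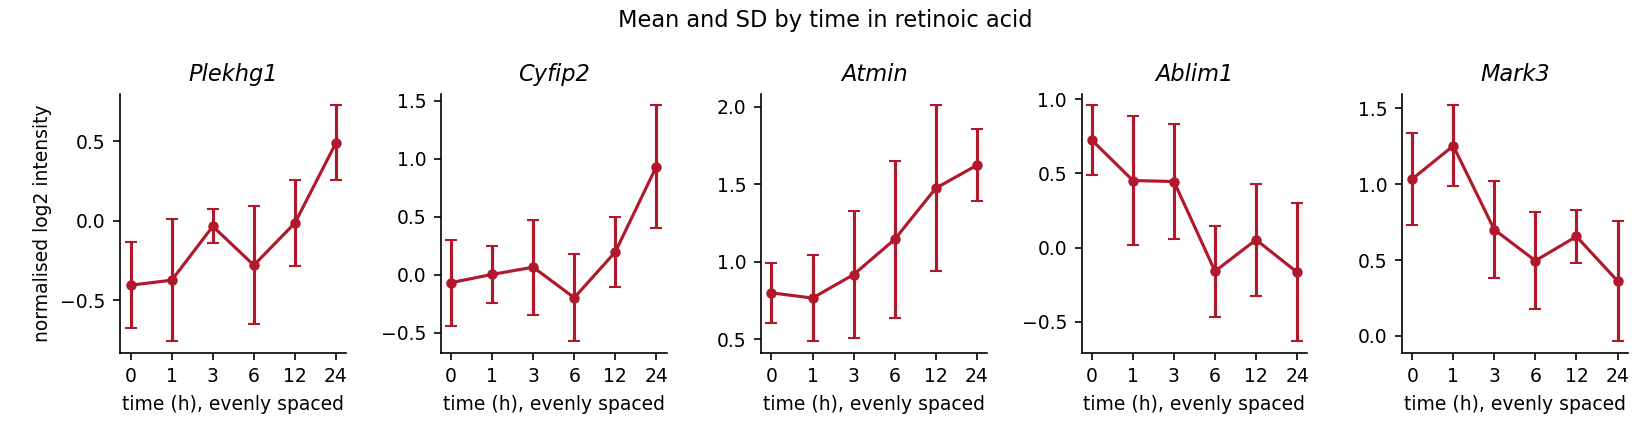
Mean normalised log2 level with SD of the 5 named genes that passed, at 0, 1, 3, 6, 12 and 24 h (evenly spaced on the axis; 7, 5, 5, 7, 7 and 7 arrays). Plekhg1 and Cyfip2 are highest at 24 h, while the mean of Ablim1 lies between -0.17 and 0.05 at 6, 12 and 24 h and that of Mark3 between 0.36 and 0.66.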

How the data were processed

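The authors deposited 1 linear intensity of the Cy5 channel for each probe and array (38 arrays). Per the labels' protocols, polyadenylated RNA was labelled with Cy5 and hybridised to oligonucleotide arrays, 1 sample an array. Background correction, scaling and the floor of 0.540 are not given in the sources used here; no spot background was used. Deposited intensities were taken to log2 with no offset and quantile normalised over the 38 arrays, then fitted with limma 3.58.1 (R 4.3.3), using every array and the 6 groups as the factor. Tests were two-sided with Benjamini-Hochberg adjustment over all probes, threshold 0.05. The same fit was run on values as deposited. Array ranges were described with Python 3.11.15; their permutation test is not quoted, since the comparison was chosen with the range known. The fit was tested on simulated data.

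Probe names came from the platform annotation (473 with 1 gene, 0 with several, 103 unnamed); 472 identifiers were found in the RefSeq table (GRCm38.p6) and 0 symbols changed. Promoters are RefSeq's, for 398 array genes. The precision rests on the number of arrays.

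The comparison, gene lists and named genes were chosen with earlier results of these data known, and 106 genes assigned to lists after the array's genes were seen are not counted in the text. Named are probes past the threshold on either scale or against other times, the 15 highest and 15 lowest genes by moderated t, the 3 members of each list with the largest moderated t, the 5 genes in each direction that differ most between scales, and the 5 brightest; other genes (Nefh, Helz, Opa1, Mfn2, Ahcyl2, Ppip5k1, Zfr2 and Fbxw11) were named after their values were seen. A list is described by counts and its median, with no test. Alternatives were other normalizations, offsets, filters, variance models, covariates, a replicate block and leaving out single arrays. The replicate numbers were checked and not used as pairs. One gene list is not reported here.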

Additional observations from a re-analysis of the deposited data

Results flagged for a closer look

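Within the 7 arrays of a group, a single array stood apart from the rest (the gap to its neighbour, as a share of the group's range, above Dixon's 95% critical value for 7 values) in 16 of 166 groups of values looked at; chance alone gives about 1 in 20, or 8.3. Control replicate 1 accounted for 6 of them. Its normalised log2 level was 4.71 for Actg1, where the other 6 controls were all at 7.13, and it was 1.02 for Tenm3, the lowest control of each. It was the highest control for Gapdh (6.21, next 4.71), Stxbp5 (0.99, next 0.26), Adcy3 (-0.29, next -0.78) and Syne1 (-0.68, next -0.78). Quantile normalization sets values by rank and ties those at the floor, so a gap can be a step between ranks or reflect a tie. The 6 controls at 7.13 for Actg1 had deposited intensities from 96.5 to 201.8. The median control of Adcy3, Syne1 and Zswim6 lay at the floor. The figure of 1 in 20 does not allow for this.

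Among the other controls, Actb stood at 6.21 on replicate 6, Nrcam at -0.45 and Chpf2 at -0.78 on replicate 5, Rrp12 at -0.39 on replicate 3 and Zswim6 at -0.48 on replicate 2. Among the 24 h arrays, replicate 1 was lowest for Pogk (-0.59) and Nedd4 (1.58) and highest for Syne1 (0.09), replicate 7 was lowest for Bzw1 (1.02), and replicate 4 was highest for Tspoap1 (-0.55). None of the 5 named genes that passed had such an array in either group, although Cyfip2 on 24 h replicate 1, with a gap of 0.555 of the range, came close to that limit.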

How the results depend on the processing

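The count of 6 probes at 24 h was 11 with no normalization after deposit, 12 with median centring, 85 with median and range scaling, 14 without the arrays above the floor, 63 with trend and robust variances and 2 with the array range as a covariate. Of the 85 probes 71, and of the 63 probes 52, were at the floor on most of the 14 arrays. Leaving out single arrays gave 4 to 10, the 10 without control replicate 1. The 11 probes as deposited became 5 to 28 in that way (an alternative chosen after the data were seen): 21, 28 and 17 without control replicates 1, 2 and 3, 5, 6 and 5 without 4, 5 and 6, and 6 without 24 h replicate 4 or 5. The 2 probes against other treated times were 6 with no normalization after deposit, 1 with median centring, 89 with median and range scaling, 8 with array weights and 2 to 4 without single arrays (4 without 24 h replicate 1). The range difference was -0.68 to -0.58. Same-numbered arrays correlated from -0.35 to 0.46, over 0.1 in 3 of 7 pairs. These 3, replicates 1, 5 and 6 (0.46, 0.44 and 0.40), also matched their own number best. Whether same-numbered arrays share a batch is not labelled and was not tested. With the replicate block 8 probes passed at 24 h and 5 against other times.

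Of 27 alternatives, Plekhg1 passed in 27, Ablim1 in 26, Cyfip2 in 24, probe 439 in 23, Mark3 in 16 and Atmin in 15, with no change of sign. Mark3 was lost without control replicates 4, 5, 6 or 7 or 24 h replicates 2, 4 or 5, and Atmin without controls 2, 4, 5, 6 or 7 or 24 h replicates 2, 3 or 5. With only the 14 arrays Cyfip2, Mark3 and probe 439 were lost. With the range as a covariate all but Plekhg1 of the 6 were lost, with Ablim1 at -0.65 (limma adjusted p = 0.276), Cyfip2 at 0.86 (0.113), probe 439 at 1.51 (0.0619), Mark3 at -0.53 (0.328) and Atmin at 0.36 (0.554). Single arrays brought calls for Dop1b (without 24 h replicate 3), St18 (without control 1) and Tle3 (without control 1 or 24 h replicate 6), beside Actg1. The RNA list's median was between -0.53 and -0.06, that of metabolic genes between -0.90 and -0.13 and that of synaptic genes between 0.04 and 0.28, without a change of sign. The causes were not tested.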

Other observations

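On all 38 arrays the deposited values were whole numbers divided by 1 whole number per array, so the scanner's own units can be read back up to a common factor. In the smallest such units a deposited value of 1 stood for 329 to 3627 units on the 24 h arrays and for 260 to 13105 on the 0 h arrays. The brightest spot had the same number of units, 632344, on 24 h replicates 4 and 5 and on 12 h replicate 4; 316172 on control replicate 4 and 1 h replicate 2; and 1264688 on control replicate 5 and 3 h replicate 2. Unnamed probe 168, brightest on 7 of 7 arrays at 24 h and 1 of 7 at 0 h, was the spot at the shared highest value on 24 h replicates 4 and 5, and Actg1 on control replicates 4 and 5. Each shared number is a multiple of the lowest one, so these spots may stand at an upper limit of the scanner, where a value bounds the level only from below; no change is given for probe 168.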
